A study of Mus musculus with 22 samples.

Results

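Genes of the blood vessel wall and of its growth signals were examined in RNA-seq counts of mouse brown adipose tissue (BAT). They are the endothelial genes Pecam1, Cdh5, Vwf, Kdr, Flt1 and Tek and the secreted angiogenic factors Vegfa, Vegfb, Angpt1 and Angpt2. The 10 genes were chosen by name, 6 of them endothelial and 4 of them ligands, and each was found by its symbol among the 55487 gene identifiers of each table of counts. All 10 passed the filter on low counts, which left 17869 genes in the untreated mice and 18899 in the virus-injected mice.

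Brown fat burns fuel to make heat and is among the most densely vascularised tissues, because its adipocytes need a steady supply of oxygen and lipid and need the heat carried away. Brown adipocytes secrete VEGFA and VEGFB, which act on receptors of endothelial cells: VEGFA on VEGFR2 (encoded by Kdr), the main signalling receptor, and both ligands on VEGFR1 (encoded by Flt1), which also serves as a decoy that holds VEGF back. In a separate system, angiopoietin 1 (Angpt1), made by cells around the vessel, activates the endothelial receptor TIE2 (Tek) and keeps vessels quiet and tight, while angiopoietin 2 (Angpt2) mostly opposes it.

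The study removed CPEB2, an RNA-binding protein that controls the translation of its target mRNAs, from every tissue of the mouse, and asked what its loss does to brown fat and what added PRDM16, a transcriptional coregulator of brown adipocyte identity, does in such mice. All animals were labelled male and were on a C57BL/6 background, and WT and KO animals came from heterozygous crosses. One cohort was untreated, with 5 WT and 5 KO mice of 21 to 25 weeks. In the other, WT and KO mice received an adeno-associated virus (AAV, serotype 2/8) carrying GFP (AAV-GFP) or flag-tagged PRDM16 (AAV-PRDM16) in the interscapular BAT at 16 weeks, at 20000000000 vector genomes in 30 µl, and BAT was taken 9 weeks later at 25 weeks, from 3 mice in each of the 4 groups. The PRDM16 transgene was carried in the vector pAAV-MCS, and which cells of the tissue expressed it was not analysed here. Whole tissue was sequenced, so that fewer endothelial cells and less RNA per endothelial cell cannot be told apart.

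Libraries held 55320927 to 162721202 counted reads in the untreated cohort and 61636889 to 143005309 in the AAV cohort, and Ucp1, the uncoupling protein that defines brown fat, lay between 1184 and 6700 CPM in all 22, where CPM are read counts scaled to one common library size. Cpeb2 lay between 10.5 and 13.96 CPM in the 6 WT mice of the AAV cohort and between 4.33 and 5.55 CPM in the 6 KO mice. In the untreated cohort it lay between 7.69 and 14.3 CPM in WT mice and at 11.7, 5.27, 2.86, 5.78 and 2.105 CPM in KO mice 1 to 5, so that the library labelled KO 1 carried a WT level of the deleted gene. Transcripts of 4 Y-linked genes summed to under 10 CPM in 6 of the 10 untreated libraries (WT 3 and 5, KO 1, 3, 4 and 5), against the label male, and in none of the AAV libraries. Prdm16 lay between 23.9 and 40.2 CPM with AAV-GFP and between 45.9 and 128 CPM with AAV-PRDM16, the endogenous gene and the transgene together.

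To compare genes with one another, CPM were divided by the length of each gene's annotated exons in kb. In the WT mice with AAV-GFP, the ligand Vegfa stood highest at 71.8 ± 9.5 CPM per kb (SD, n = 3), followed by Vegfb at 59.4 ± 3.0. Among the endothelial genes, Cdh5, which encodes the adhesion molecule VE-cadherin of endothelial junctions, led at 30.1 ± 4.7 CPM per kb. Pecam1, the platelet and endothelial adhesion molecule CD31, stood at 13.5 ± 2.0 and Kdr at 13.2 ± 1.7, and these neighbours overlapped. Flt1 at 7.52 ± 0.72 and Tek at 7.17 ± 1.1 overlapped as well. Below them came Angpt1 at 4.66 ± 1.0, Vwf, the clotting protein von Willebrand factor that endothelial cells store, at 0.432 ± 0.059, and Angpt2 at 0.262 ± 0.033. The 3 libraries of no other pair of neighbours in this order overlapped. Each value is an average over all annotated exons, which understates a gene whose annotated exons are in part unused.

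The genes lie on 8 chromosomes of the GRCm38 build, and Kdr and Flt1 share chromosome 5. Pecam1 spans chr11:106654217-106750628, Cdh5 chr8:104101625-104144511, Vwf chr6:125546774-125686679 and Tek chr4:94739289-94874976. Kdr spans chr5:75932827-75978458 and Flt1 chr5:147561604-147726011. The ligand genes are Vegfa at chr17:46016993-46032369, Vegfb at chr19:6982473-6987651, Angpt1 at chr15:42424723-42676977 and Angpt2 at chr8:18690263-18741562. Promoters of 5 of the 10 genes were in the RefSeq table used. Those of the 3 receptor genes Kdr, Flt1 and Tek are shown, as the endothelial genes with a promoter in that table. Endothelial genes are known as targets of ETS family factors such as ERG and FLI1, whose binding sites share the core GGAA. The 240 bases from 250 to 11 bases before the RefSeq start of each gene, on GRCm38.p6 and on the strand of the gene, are printed 5′ to 3′ with GGAA, or its reverse complement TTCC, in capitals.
Kdr (chr5:75978466-75978705, minus strand): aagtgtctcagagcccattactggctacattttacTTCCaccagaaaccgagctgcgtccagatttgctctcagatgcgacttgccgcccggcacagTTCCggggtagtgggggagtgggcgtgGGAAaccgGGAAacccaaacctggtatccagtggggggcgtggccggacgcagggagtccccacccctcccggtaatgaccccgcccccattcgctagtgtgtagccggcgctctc
Flt1 (chr5:147726022-147726261, minus strand): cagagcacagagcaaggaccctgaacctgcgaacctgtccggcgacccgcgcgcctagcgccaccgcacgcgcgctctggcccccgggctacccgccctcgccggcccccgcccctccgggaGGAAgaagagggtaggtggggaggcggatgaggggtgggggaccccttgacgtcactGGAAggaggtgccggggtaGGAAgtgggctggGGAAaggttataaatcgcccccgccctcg
Tek (chr4:94739039-94739278, plus strand): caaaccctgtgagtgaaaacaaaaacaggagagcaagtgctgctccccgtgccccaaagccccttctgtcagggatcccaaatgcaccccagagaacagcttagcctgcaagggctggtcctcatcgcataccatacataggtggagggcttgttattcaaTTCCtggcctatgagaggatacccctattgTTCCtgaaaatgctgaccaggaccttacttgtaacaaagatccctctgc
The windows of Kdr and Flt1 each held 4 cores and that of Tek held 2. Over the 32851 promoter windows of the table the median was 3 cores, and 92.7% held at least 1, so that the core is common in promoters of any kind, and a match is a description and not a binding site.

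Between genotypes of the AAV cohort, the endothelial genes other than Kdr lay on average higher in KO than in WT brown fat, by 0.31 to 0.60 on the log2 scale, while the 4 ligands and Kdr differed by 0.20 or less on that scale. No member passed a false discovery rate (FDR) of 0.05 in edgeR's quasi-likelihood test, in which 2.18% of all genes tested were called when KO was compared with WT over both viruses. At an unadjusted p under 0.05, 5 of the 10 members passed, all of them higher in KO, against 18.3% of all genes in either direction and 9.54% higher in KO. DESeq2, run on the same counts, called 4 members, where it called 8.2% of all genes. For no member did the 6 KO mice stand wholly apart from the 6 WT mice, which 2.71% of genes did.

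**Figure D1:**
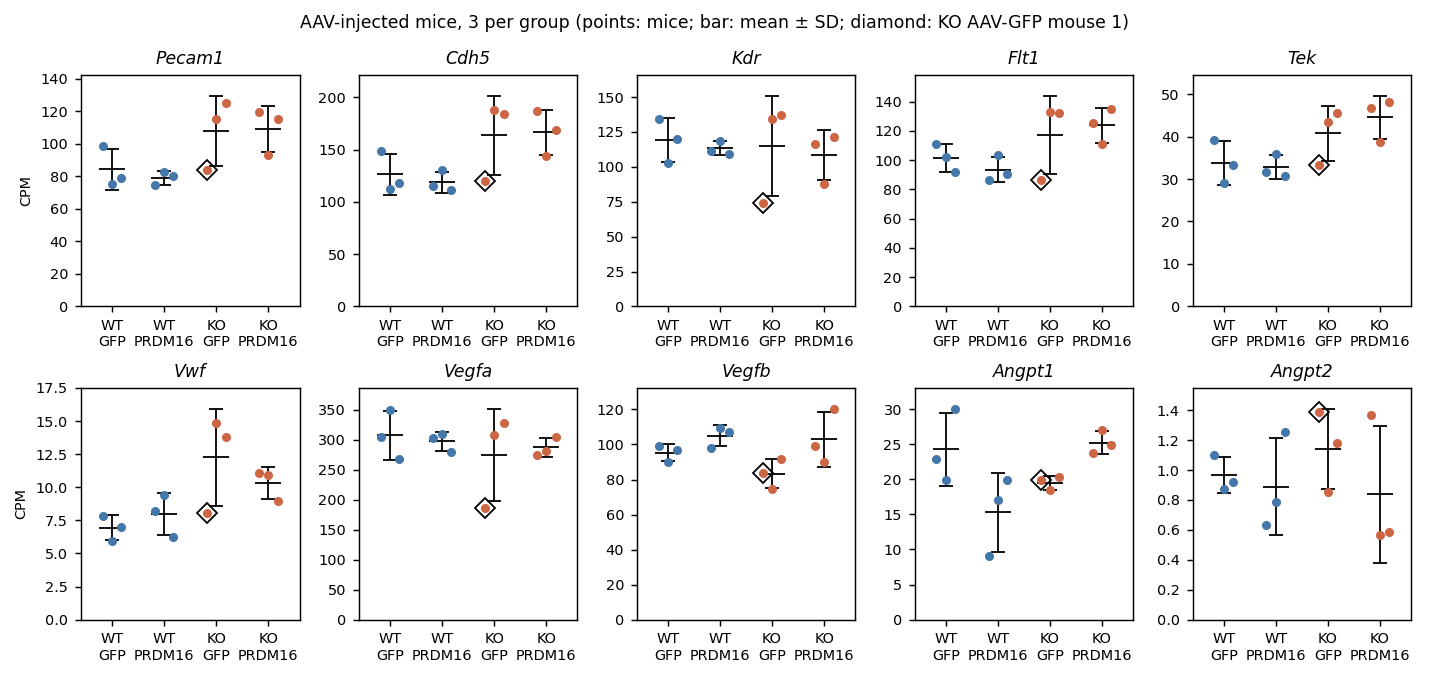
Level in CPM of each of the 10 genes in the 12 AAV-injected mice, by genotype and virus, with points for mice and bars for the mean ± SD of 3 mice. The diamond marks KO AAV-GFP mouse 1, which was the lowest KO mouse for Pecam1, Cdh5, Kdr, Flt1, Tek, Vwf and Vegfa.

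Of the identity genes, Pecam1 stood at 98.5, 75.2 and 79.2 CPM in WT mice with AAV-GFP, at 74.4, 82.7 and 80.3 in WT mice with AAV-PRDM16, at 83.8, 115 and 125.2 in KO mice with AAV-GFP and at 120, 93.2 and 115 in KO mice with AAV-PRDM16. Cdh5 was at 149, 112 and 118 CPM in the first of these groups, at 115, 130 and 111 in the second, at 120, 187 and 184 in the third and at 187, 144 and 168 in the fourth. For Pecam1 all 6 KO mice exceeded 5 of the 6 WT mice, and the overlap came from WT AAV-GFP mouse 1. For Cdh5 5 of the 6 KO mice exceeded 5 of the 6 WT mice, and KO AAV-GFP mouse 1 lay among the WT mice. The log2 fold change over both viruses was 0.41 ± 0.11 (SE) for Pecam1 (edgeR FDR = 0.0733, DESeq2 adjusted p = 0.0111) and 0.43 ± 0.12 for Cdh5 (edgeR FDR = 0.0878, DESeq2 adjusted p = 0.0170). Vwf ranged from 5.98 to 9.41 CPM with a median of 7.41 in the 6 WT mice and from 8.07 to 14.9 with a median of 11.01 in the 6 KO mice. Its log2 fold change of 0.60 ± 0.16 was the largest of the 10 genes (edgeR FDR = 0.0682, DESeq2 adjusted p = 0.00850).

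Tek lay at 39.1, 29.0 and 33.3 CPM in WT mice with AAV-GFP, at 31.7, 36.0 and 30.8 in WT mice with AAV-PRDM16, at 33.4, 43.4 and 45.5 in KO mice with AAV-GFP and at 46.8, 38.8 and 48.2 in KO mice with AAV-PRDM16. The log2 fold change of this angiopoietin receptor was 0.36 ± 0.10 (edgeR FDR = 0.0880, DESeq2 adjusted p = 0.0240). Flt1, the decoy receptor, ranged over 86.6 to 111 CPM in WT (median 96.7) and 86.7 to 135 in KO (median 129), a log2 fold change of 0.31 ± 0.11 (edgeR FDR = 0.160). Kdr was at 134, 103 and 120 CPM in WT mice with AAV-GFP, at 111, 119 and 109 in WT mice with AAV-PRDM16, at 73.9, 135 and 137 in KO mice with AAV-GFP and at 117, 88.1 and 121.2 in KO mice with AAV-PRDM16. WT and KO mice of this main VEGF receptor overlapped throughout, and its log2 fold change of -0.05 ± 0.15 (edgeR FDR = 0.890) had a 95% interval from -0.37 to 0.26.

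Relative to the other endothelial genes, Kdr was lower in the KO mice. The log2 CPM of Kdr minus the mean of the other 5 endothelial genes ranged from 1.19 to 1.40 in the 6 WT mice (median 1.29) and from 0.61 to 0.93 in the 6 KO mice (median 0.84). All 6 KO mice lay under all 6 WT mice, also KO AAV-GFP mouse 1 at 0.65, and this relation, noticed in the data, was not tested. Kdr was the endothelial gene without a higher average in KO mice, so a lower average relative to the other 5 repeats those fold changes. How often other differences between genes separate the genotypes was not computed. The CPM ratio of Kdr to Flt1 alone overlapped, at 1.01 to 1.31 in WT and 0.79 to 1.04 in KO mice. In the untreated cohort the same log2 difference of Kdr ranged over 0.58 to 1.20 in WT mice and 0.17 to 0.98 in KO mice, and the genotypes overlapped.

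**Figure D2:**
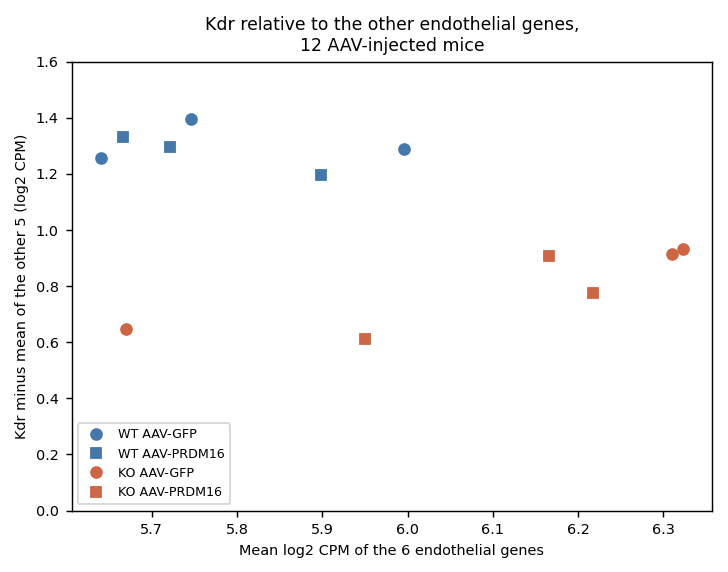
Kdr relative to the other 5 endothelial genes (vertical axis, difference in log2 CPM) against the mean log2 CPM of all 6 endothelial genes (horizontal axis), 1 point for each of the 12 AAV-injected mice. WT mice lie between 1.19 and 1.40 and KO mice between 0.61 and 0.93 on the vertical axis. Kdr was singled out after its values were seen, so the gap repeats the fold changes and was not tested.

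Among the ligands, Vegfa was at 304, 350 and 269 CPM in WT mice with AAV-GFP, at 304, 309 and 280 in WT mice with AAV-PRDM16, at 186, 308 and 329 in KO mice with AAV-GFP and at 276, 281 and 306 in KO mice with AAV-PRDM16. Apart from KO AAV-GFP mouse 1, the mice of both genotypes covered a similar range, with a log2 fold change of -0.11 ± 0.13 (edgeR FDR = 0.711). Vegfb, a ligand of VEGFR1 linked to fatty acid handling, ranged over 89.9 to 110 CPM in WT mice and 74.7 to 120 in KO mice, a log2 fold change of -0.11 ± 0.08 (edgeR FDR = 0.536). Angpt2, at 0.632 to 1.25 CPM in WT and 0.564 to 1.39 in KO mice, was the scarcest member, with 35 to 170 reads in a library. Its log2 fold change was 0.08 ± 0.28 (edgeR FDR = 0.923), and that of Angpt1 over both viruses was 0.20 ± 0.16 (edgeR FDR = 0.566).

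KO AAV-GFP mouse 1 decided how many members passed the threshold. This library had the lowest Kdr (73.9 CPM) and Vegfa (186 CPM) of the 12 and, with 144 CPM summed over the skeletal muscle genes, the most muscle transcript, against 29.2 to 66.2 CPM in the other libraries. Of that list Myl1 alone averaged 34.0 CPM in WT and 34.1 in KO mice, against a median sum of 36.7 over the 12. Up to 10 of its 15 genes had 0 reads in a library, so most of these sums were largely 1 gene. Without KO AAV-GFP mouse 1, edgeR called 5 members over both viruses, where 3.02% of all genes tested were called: Pecam1 (log2 fold change 0.49, FDR = 0.0262), Cdh5 (0.52, FDR = 0.0253), Flt1 (0.39, FDR = 0.0326), Tek (0.42, FDR = 0.0415) and Vwf (0.71, FDR = 0.0192). Kdr stood at 0.06 (FDR = 0.781) and Vegfa at -0.00 (FDR = 0.9998) in that fit. Leaving out any other library gave 0 members. With the trends of every library in GC content and transcript length removed, a setting chosen after seeing the data, the log2 fold changes over both viruses were 0.32 for Pecam1 (FDR = 0.137), 0.34 for Cdh5 (FDR = 0.135), 0.50 for Vwf (FDR = 0.073), 0.24 for Tek (FDR = 0.225), 0.18 for Flt1 (FDR = 0.359), 0.036 for Angpt1 and -0.18 for Kdr. The GC trend of these libraries differed by genotype, as given with the untreated mice.

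The genotypes were also compared within each virus. In mice with AAV-GFP, KO was compared with WT over 3 mice each, and edgeR called 0 members at FDR 0.05 (0.0529% of all genes), while 2 members passed an unadjusted p under 0.05 (9.18% of all genes, 4.98% higher in KO). These were Vwf, with a log2 fold change of 0.82 ± 0.22 (FDR = 0.295), and Pecam1, with 0.36 ± 0.16 (FDR = 0.524). DESeq2 called Vwf alone (adjusted p = 0.0444), where it called 1.08% of genes. Vwf, at 7.86, 5.98 and 6.97 CPM in WT against 8.07, 14.9 and 13.8 in KO mice, was also the single member whose groups did not overlap, which 13.4% of genes did not. In the same mice Kdr differed by -0.05 ± 0.21 and Angpt1 by -0.31 ± 0.23 on the log2 scale.

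In mice with AAV-PRDM16, 0 members were called by edgeR (0.0476% of genes) and 0 by DESeq2 (3.22%), while 5 passed an unadjusted p under 0.05, all higher in KO, against 13.7% of genes in either direction and 6.92% higher in KO. They were Pecam1 (log2 fold change 0.46 ± 0.16, FDR = 0.231), Cdh5 (0.49 ± 0.17, FDR = 0.253), Flt1 (0.40 ± 0.16, FDR = 0.289), Tek (0.44 ± 0.14, FDR = 0.220) and Angpt1 (0.72 ± 0.23, FDR = 0.216). The 3 KO mice lay above the 3 WT mice for the same 5 members, as the groups stood apart for 22.8% of all genes. Kdr differed by -0.06 ± 0.21 in these mice. When KO mice with AAV-PRDM16 were set against WT mice with AAV-GFP, the comparison that asks whether added PRDM16 brings KO tissue to the WT state, 0 members were called by edgeR (0.00529% of genes) and 0 by DESeq2 (0.831%). There 4 members passed an unadjusted p under 0.05 (7.93% of genes, 3.5% higher), namely Pecam1 at 0.37 ± 0.16, Cdh5 at 0.40 ± 0.17, Tek at 0.40 ± 0.14 and Vwf at 0.58 ± 0.22. These comparisons share mice with each other and with the average over both viruses.

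**Figure D3:**
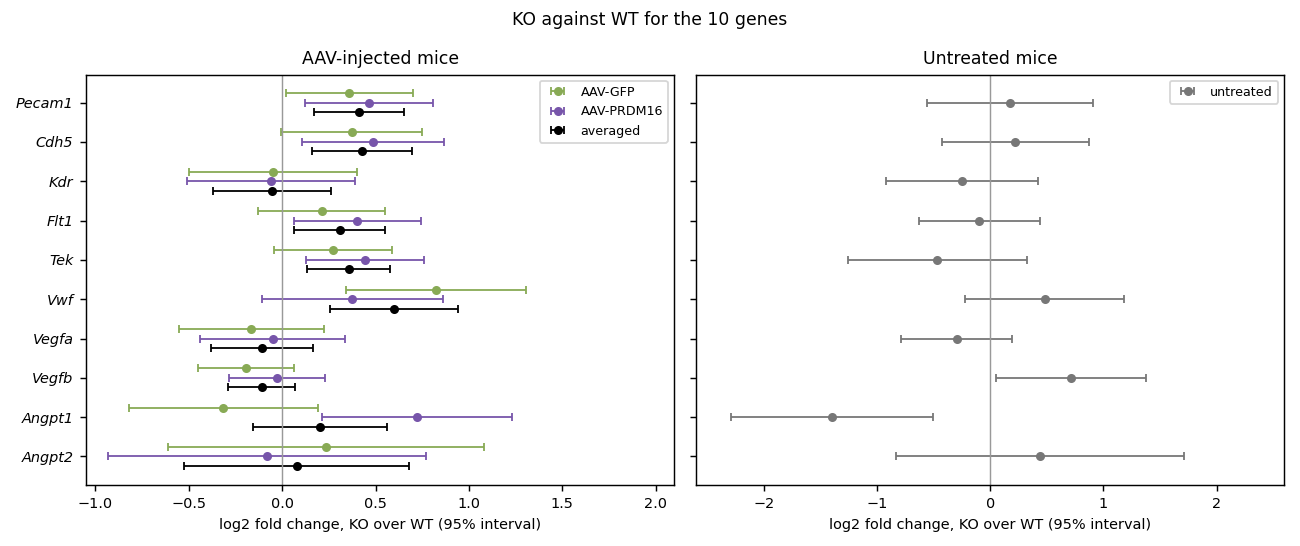
Log2 fold change of KO over WT for each gene, with 95% intervals from edgeR, in the AAV-injected mice (left, by virus and averaged over both) and the untreated mice (right, wider axis). The averaged intervals of Pecam1, Cdh5, Flt1, Tek and Vwf lie above 0, that of Kdr spans it, and untreated Angpt1 lies below 0.

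Between the viruses the endothelial genes differed little on average. Averaged over both genotypes, AAV-PRDM16 against AAV-GFP gave 0 members by edgeR (0.037% of genes called) and 0 by DESeq2 (3.19%), with a median log2 fold change of -0.03 over the 6 endothelial genes and -0.01 over all genes. One member, Vegfb, passed an unadjusted p under 0.05, against 9.09% of genes, with a log2 fold change of 0.22 ± 0.08 (FDR = 0.367). Vegfb was at 99.4, 89.9 and 96.6 CPM in WT mice with AAV-GFP, 98.3, 110 and 107 in WT mice with AAV-PRDM16, 83.8, 74.7 and 91.5 in KO mice with AAV-GFP and 98.9, 89.8 and 120 in KO mice with AAV-PRDM16. The mice of the 2 viruses overlapped within each genotype, with log2 fold changes of 0.14 ± 0.12 in WT (FDR = 0.863) and 0.31 ± 0.12 in KO (FDR = 0.596).

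Angpt1, the stabilising ligand of TIE2, was the member with the largest interaction of genotype and virus. It was at 22.9, 19.8 and 30.0 CPM in WT mice with AAV-GFP and at 9.02, 17.0 and 19.9 in WT mice with AAV-PRDM16. In KO mice it was at 19.8, 18.4 and 20.3 CPM with AAV-GFP and at 23.7, 27.1 and 24.9 with AAV-PRDM16. WT mice with AAV-PRDM16 were thus mostly lower than those with AAV-GFP, touching at 19.9 and 19.8 CPM, while KO mice with AAV-PRDM16 were all higher than those with AAV-GFP. In WT the log2 fold change was -0.66 ± 0.23 (FDR = 0.527), and Angpt1 was the 1 member with an unadjusted p under 0.05 (7.29% of genes). Without WT AAV-PRDM16 mouse 1, the lowest of the 12, it was -0.39, and the difference between KO and WT with AAV-PRDM16 went from 0.72 to 0.45 (FDR = 0.477). EdgeR and DESeq2 called 0 members in WT (0% and 0.778% of genes), and 0 members had groups that did not overlap (14.2% of genes). In KO the log2 fold change of Angpt1 was 0.37 ± 0.23 (FDR = 0.9999). There edgeR and DESeq2 called 0 members (0% and 1.39% of genes), 1 member (Vegfb) passed the unadjusted threshold (6.41% of genes) and 1 (Angpt1) had groups that did not overlap (9.43% of genes). The interaction of genotype and virus for Angpt1 was 1.03 ± 0.33 on the log2 scale (unadjusted p = 0.00844 in the edgeR fit, FDR = 0.9998). It was the 1 member under an unadjusted p of 0.05, against 3.19% of genes, and the interaction called 0 members by edgeR (0% of genes) and 0 by DESeq2 (0.00529% of genes).

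Other genes of the vessel wall and its pathways were read from lists, for KO against WT over both viruses, beside a median log2 fold change of 0.01 over all genes tested. Over those 18899 genes 9755 log2 fold changes were positive, edgeR called 2.18%, DESeq2 called 8.2% and 18.3% passed an unadjusted p under 0.05. Of 26 further endothelial identity genes, 23 had a positive log2 fold change with a median of 0.34. EdgeR called 1 of them, higher in KO, and DESeq2 called 9. The called gene was Cd34, a sialomucin of capillary endothelium that stromal progenitors of fat also carry, at 7.28 to 11.4 CPM in WT and 13.0 to 26.2 in KO mice (log2 fold change 0.99 ± 0.16, FDR = 0.0145). The 4 most abundant of the list stood at 0.14 ± 0.08 for Cd36, a fatty acid transporter that adipocytes also make, 0.13 ± 0.11 for Podxl, -0.00 ± 0.15 for Eng and 0.50 ± 0.15 for Tie1. Without KO AAV-GFP mouse 1, edgeR called 8 of the 26 genes, all higher in KO, against 3.02% of all genes, and all 26 log2 fold changes were positive, as were 10053 of 19521 over all genes.

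Of 22 genes of the VEGF and angiopoietin pathway, edgeR called 0, while 6 higher and 1 lower in KO passed an unadjusted p under 0.05. DESeq2 called 1 in each direction, and the median was 0.18. The most abundant were the VEGF coreceptors Nrp2 (-0.24 ± 0.07, FDR = 0.0880) and Nrp1 (-0.06 ± 0.11), the phosphatase Ptprb that acts on TIE2 (0.42 ± 0.15, FDR = 0.165) and Svep1 (-0.27 ± 0.26). Without KO AAV-GFP mouse 1 edgeR called 2 genes of this list, Ptprb and Tie1. Tie1 and Nos3 also belong to the endothelial identity list, so Tie1 is counted in both.

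Of 23 tested genes of tip cells, Notch signalling and vessel growth, edgeR called 3, all higher in KO, and DESeq2 called 9, with a median of 0.35. Col4a1 and Col4a2 encode chains of collagen IV, the scaffold of the vascular and adipocyte basement membrane. Col4a1 stood at 224 to 298 CPM in WT and 378 to 477 in KO mice (log2 fold change 0.70 ± 0.08, FDR = 0.00439) and was also called within the mice given AAV-PRDM16 (0.74 ± 0.11, FDR = 0.0404). Col4a2 stood at 213 to 283 CPM in WT and 300 to 400 in KO mice (0.52 ± 0.09, FDR = 0.0145). The third was Aplnr, the apelin receptor of sprouting endothelium, at 6.48 to 13.9 CPM in WT and 14.3 to 28.4 in KO mice (0.85 ± 0.20, FDR = 0.0468), which missed the threshold without KO AAV-GFP mouse 1 (FDR = 0.0564). For each of these 3 genes the genotypes did not overlap, as for 2.71% of all genes tested. The 3 were named by the test on the same mice, so the separation adds no further evidence. Angptl4 (-0.15 ± 0.16) and Plxnd1 (-0.07 ± 0.21) were the next most abundant of the list.

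Of 16 tested genes of hypoxia sensing and of Vegfa regulation, 4 had a positive log2 fold change, and the median was -0.07. EdgeR called 0, 2 in each direction passed an unadjusted p under 0.05, and DESeq2 called 2 higher and 1 lower in KO. The list shares Ppargc1a and Adrb3 with the brown adipocyte genes below. Epas1, which encodes the hypoxia factor HIF2A, differed by -0.01 ± 0.08, Egln1 by -0.04 ± 0.08, Pgk1 by -0.05 ± 0.12 and Ldha by -0.06 ± 0.15 on the log2 scale. Vegfa itself stood at -0.11, as given above.

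Markers of other cells moved with genotype in the same mice. Of 9 tested macrophage and platelet genes, edgeR called 3, the macrophage genes Csf1r (1.02 ± 0.21, FDR = 0.0349), Mrc1 (0.88 ± 0.17, FDR = 0.0264) and Itgam (1.70 ± 0.37, FDR = 0.0379), all higher in KO. The summed list lay at 47.7 to 103 CPM in WT mice with AAV-GFP, 37.0 to 46.0 in WT mice with AAV-PRDM16, 122 to 296 in KO mice with AAV-GFP and 59.4 to 81.3 in KO mice with AAV-PRDM16. The platelet genes Pf4 (0.678 to 1.20 CPM in WT, 0.819 to 2.00 in KO) and Itga2b (0.929 to 1.80 in WT, 0.484 to 1.87 in KO) lay at or under 2.00 CPM in every mouse. Of 14 brown adipocyte genes, edgeR called 3 lower in KO: Cidea (fell by 0.39 ± 0.08 on the log2 scale, FDR = 0.0378), Cox8b (fell by 0.66 ± 0.12, FDR = 0.0189) and Cox7a1 (fell by 0.63 ± 0.10, FDR = 0.0145). Ucp1 stood at -0.24 ± 0.22 (FDR = 0.612). The part of these cells in the endothelial values was not tested.

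Within groups, the endothelial genes varied together from mouse to mouse. After subtraction of group means, the log2 CPM of Cdh5 correlated with the mean of the other 5 endothelial genes at r = 0.98 over the 12 AAV libraries, Kdr at 0.94, Tek and Pecam1 at 0.92, Flt1 at 0.89 and Vwf at 0.74. For the ligands r was 0.25 for Vegfb, -0.02 for Angpt1 and -0.06 for Angpt2. Vegfa stood at 0.72, but at -0.03 over the 11 libraries without KO AAV-GFP mouse 1, so that its relation rested on that mouse, while Cdh5 (0.97), Tek (0.95), Pecam1 (0.85) and Kdr (0.83) stayed above 0.80, Flt1 went to 0.68 and Vwf to 0.35. Without that mouse Vegfb stood at 0.50, Angpt2 at 0.32 and Angpt1 at 0.01. Over the 10 untreated libraries r was 0.96 for Pecam1, 0.89 for Tek, 0.85 for Cdh5, 0.83 for Kdr, 0.57 for Flt1 and 0.45 for Vwf. There Angpt2 stood at 0.84, unlike in the AAV cohort, and Vegfa (0.07), Vegfb (-0.02) and Angpt1 (-0.16) near 0. These correlations are descriptions, and all points share libraries and scaling. Among 8837 other genes with at least 5 CPM, those most like the endothelial mean were Ptprb (r = 0.99), the ETS factor Fli1 (0.98), the myosin Myh9 (0.97), the scavenger receptor Stab1 (0.96) and Klf7 (0.96). Those most like Vegfa over the 12 libraries were Zfp335 (0.99), Trim39 (0.97), Sgk1 (0.96), Raph1 (0.96) and Gata2 (0.96). KO AAV-GFP mouse 1, the lowest of the 12 for Vegfa at 186 CPM, was included in these r values. They were not computed without that mouse and may rest on it.

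In the untreated cohort, loss of CPEB2 was compared over 5 mice of each genotype, and neither edgeR nor DESeq2 called a member: 0 were called by each, as were 0% of all genes. At an unadjusted p under 0.05, 2 members passed, Angpt1 lower and Vegfb higher in KO, against 15.9% of all genes, and for 0 members did the genotypes not overlap (1.4% of genes). The endothelial genes had a median log2 fold change of 0.04, as had all genes, with intervals that were wide.

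**Figure D4:**
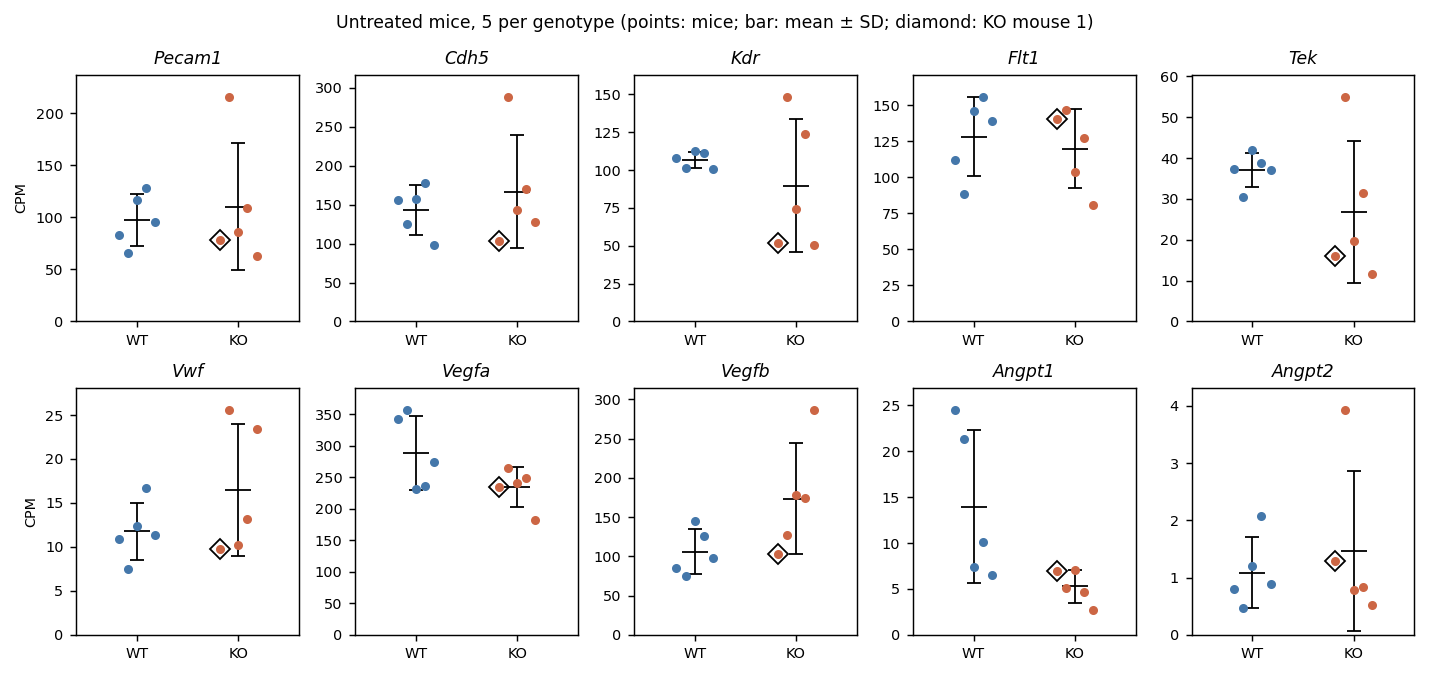
Level in CPM of each gene in the 5 WT and 5 KO untreated mice, with points for mice and bars for the mean ± SD. The diamond marks the library labelled KO 1, whose Cpeb2 was at a WT level, and KO 2 is the highest KO mouse for all 6 endothelial genes.

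Pecam1 was at 83.4, 65.9, 116, 128 and 95.5 CPM in WT mice 1 to 5 and at 78.4, 216, 85.8, 109 and 62.7 in KO mice 1 to 5. Its log2 fold change was 0.17 ± 0.34 (FDR = 0.786), and without KO 2, the high mouse, it was -0.20. Cdh5 lay between 97.8 and 178 CPM in WT (median 156) and between 103 and 288 in KO mice (0.22 ± 0.30, FDR = 0.694), with -0.04 without KO 2. Vwf lay between 7.49 and 16.6 CPM in WT and between 9.75 and 25.5 in KO mice, a log2 fold change of 0.48 ± 0.32 (FDR = 0.423), which was 0.31 without KO 2 and 0.32 without KO 5. KO 2 also held the most skeletal muscle transcript, 7962 CPM over the muscle list, in a cohort where that sum ran over 62.3 to 3918 CPM in WT mice and 46.2 to 7962 CPM in KO mice. The part of this tissue in the endothelial values was not tested.

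Of the receptors, Kdr was at 108, 102, 112, 111 and 101 CPM in WT mice and at 52.0, 148, 74.6, 124 and 50.3 in KO mice. The WT mice kept within a narrow band that the KO mice left on both sides, and the log2 fold change was -0.25 ± 0.31 (FDR = 0.665). Tek was at 37.3, 30.5, 42.0, 38.8 and 37.1 CPM in WT and at 16.0, 54.9, 19.6, 31.6 and 11.7 in KO mice (-0.47 ± 0.36, FDR = 0.480), and the KO mice stood in the same order as for Kdr. Without KO 2 the log2 fold changes were -0.89 for Tek and -0.48 for Kdr, and without KO 5 they were -0.28 and -0.10. The library labelled KO 1, with a WT level of Cpeb2, was kept in these 2 fits. Over all 18 alternatives Tek ranged from -0.99 to -0.26 and Kdr from -0.49 to -0.10. Flt1 lay between 88.5 and 156 CPM in WT and between 80.5 and 147 in KO mice, a log2 fold change of -0.10 ± 0.25 (FDR = 0.841).

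Angpt1 was at 24.5, 21.3, 7.40, 10.2 and 6.56 CPM in WT mice 1 to 5 and at 6.92, 5.05, 7.08, 4.71 and 2.68 in KO mice. WT 1 and WT 2 stood far above the other 8 mice, and the log2 fold change was -1.40 ± 0.41 (FDR = 0.305). It was -0.56 (FDR = 0.867) without WT 1 and WT 2, whose columns the study's supplementary files name in another style, and -0.38 (FDR = 0.864) over the 6 libraries without Y-linked transcripts. Without the library labelled KO 1 it was -1.52 (FDR = 0.160). Vegfb was at 85.2, 75.3, 144, 125.4 and 98.2 CPM in WT and at 102, 128, 178, 174 and 286 in KO mice, a log2 fold change of 0.72 ± 0.31 (FDR = 0.308), 0.86 (FDR = 0.163) without the library labelled KO 1 and 0.46 (FDR = 0.595) without KO 5. Vegfa lay between 232 and 356 CPM in WT and between 181 and 264 in KO mice (-0.30 ± 0.23, FDR = 0.470), and Angpt2 between 0.460 and 2.08 in WT and between 0.526 and 3.92 in KO mice (0.44 ± 0.59, FDR = 0.687). Without WT 1 and WT 2 Vegfa stood at -0.021, and without KO 2 Angpt2 stood at -0.32.

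Vegfa, Vegfb and Angpt1 varied with the base composition of the untreated libraries. Over all genes, the log2 level of a library against the mean of the cohort sloped with GC content by -0.54 (WT 1) to 0.95 (KO 5) per 10% GC, against -0.12 to 0.08 in the AAV libraries. Narrow as it was, the slope of the AAV libraries also stood apart by genotype, at 0.03 to 0.08 in WT and -0.12 to 0.01 in KO mice. Over the 10 untreated libraries that slope correlated at r = 0.97 with Vegfb, whose transcripts hold 62.6% GC, at -0.85 with Angpt1, which holds 39.3%, and at -0.84 with Vegfa, which holds 50.9%. Vegfa thus lay near the median of 49.3% GC over the genes tested in the AAV cohort, unlike Vegfb and Angpt1. For Angpt2 the r with the slope was -0.09. Of the endothelial genes, Vwf stood at 0.60, Tek at -0.59, Kdr at -0.46, Flt1 at -0.37, Cdh5 at 0.11 and Pecam1 at -0.07. These are descriptions over 10 libraries in which the slope also differed by genotype. When the trends of every library with GC content and with length were removed, a setting chosen after seeing the data, the log2 fold change of Vegfb was -0.10 (FDR = 0.862) and that of Angpt1 -0.69 (FDR = 0.651). Tek then stood at -0.26, Kdr at -0.10, Vwf at 0.11 and Cdh5 at 0.10. Base composition and genotype cannot be told apart in either cohort.

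**Figure D5:**
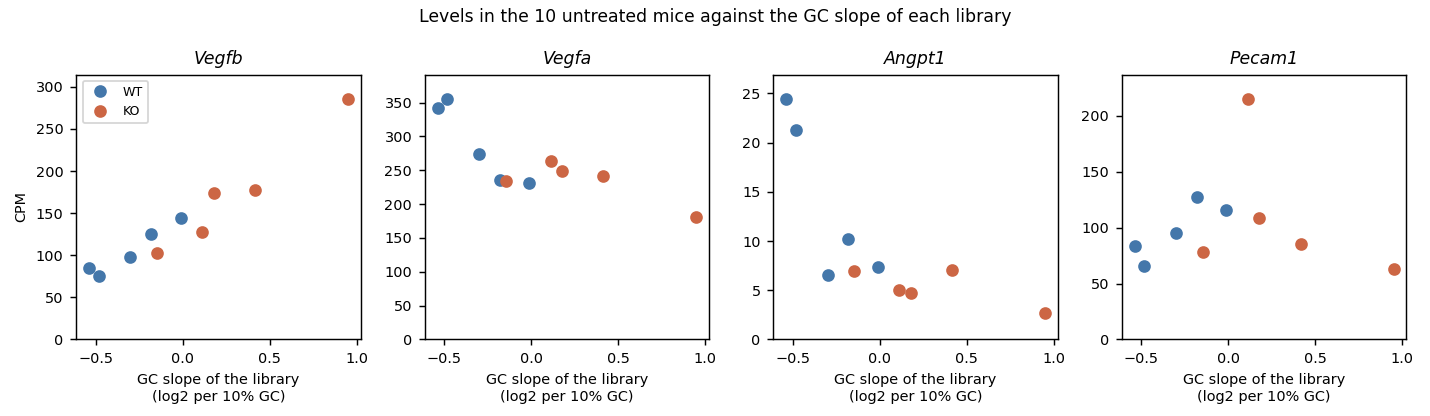
Level in CPM of Vegfb, Vegfa, Angpt1 and Pecam1 in the 10 untreated mice (vertical axes) against the slope of each library's log2 levels with GC content (horizontal axes, log2 per 10% GC). Vegfb is highest where the slope is highest (r = 0.97), Angpt1 and Vegfa are lowest there (r = -0.85 and -0.84), and Pecam1 has r = -0.07.

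The 26 further endothelial genes had a median log2 fold change of 0.68 in the untreated mice, against 0.04 over all genes, with 20 of 26 positive. Of them, edgeR and DESeq2 called 0, and 2 passed an unadjusted p under 0.05, both higher in KO, a smaller share than the 15.9% of all genes. Cldn5, the tight junction protein claudin 5, chosen after its values were seen, shows how uneven the libraries were. It was at 12.7, 9.91, 153, 133 and 18.03 CPM in WT mice and at 84.3, 199.8, 197, 142.8 and 193.6 in KO mice. The low libraries WT 1, WT 2 and WT 5 also had the lowest GC slopes, at -0.54, -0.48 and -0.30 per 10% GC. The part of base composition in Cldn5 and in the median of this list was not tested. Of 21 tested genes of the VEGF and angiopoietin pathway 0 were called, with 4 higher and 3 lower at an unadjusted p under 0.05, and a median of -0.02. DESeq2 called 0 of these as well. Of 23 tested genes of tip cells, Notch signalling and vessel growth, edgeR and DESeq2 called 0. In this list 21 log2 fold changes were positive, with a median of 0.58, against 9261 of 17869 and 0.04 over all genes. At an unadjusted p under 0.05, 3 passed, all higher in KO, against 15.9% of all genes. The summed list lay at 772 to 1515 CPM in WT mice and 1432 to 2200 CPM in KO mice. Its lowest sums, 772 CPM in WT 5 and 891 in WT 2, came from libraries with low GC slopes. WT 1, with the lowest slope, was at 1146.5 CPM. The part of base composition in this list was not tested either.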

How the data were processed

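RNA of interscapular BAT from 22 mice, 1 library per mouse, was made into mRNA libraries (SureSelect XT HS2) and sequenced on an Illumina instrument. The deposited values are raw counts of reads per Ensembl gene, which the authors produced; the submitters' processing notes name bcl2fastq 2.20, Trimmomatic 0.36, HISAT2 and the build GRCm38.p6. The counting tool, its strand setting and its treatment of duplicates were not given in the sources used here, so that overlapping or antisense genes may share reads.

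Symbols, positions and exon lengths came from GENCODE M21 (GRCm38), which matched 55227 of 55487 identifiers. Promoter windows came from RefSeq (GRCm38.p6). Genes were filtered with filterByExpr, scaled by TMM and tested, two-sided, with edgeR 4.0.16 (glmQLFit, glmQLFTest) in R 4.3.3, and p-values were adjusted over all genes tested by Benjamini-Hochberg. Each cohort was fitted on its own, with 1 mean per group, and the 4 AAV groups shared 1 estimate of the spread. SE of a log2 fold change was its size divided by the square root of F. CPM are on TMM-scaled library sizes, and log2 CPM used a prior count of 2. The tests were repeated with DESeq2 1.42.0, with RLE scaling, without the filter, with each library left out, and with a replicate block, the 2 groups alone, subsets of the untreated mice or removal of GC and length trends by splines of 4 degrees of freedom, the last chosen after seeing the data. The code was tested on simulated data.

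The members and lists were chosen with earlier results of these data known. All 10 members are named. Of the lists, every gene called at FDR 0.05 in any comparison and the 4 with the highest mean CPM in each list of vessel or pathway genes are named, and Cldn5 was added after its values were seen. Most similar genes were the 5 with the highest r among genes of at least 5 CPM. Same-numbered libraries correlated at -0.292 to 0.111 in the untreated cohort and at -0.0912 to 0.154 in the AAV cohort, so the numbers do not pair the mice.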

Additional observations from a re-analysis of the deposited data

Results flagged for a closer look

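Angpt2 in the untreated KO mice was flagged because 1 mouse stood far from the other 4: KO 2 was at 3.92 CPM, while the nearest KO mouse was at 1.28 CPM. Its gap to that mouse was 0.777 of the range of the group, against a critical value of 0.71. It was 1 of 20 groups examined (10 genes in 2 untreated groups of 5), and chance flags about 1 in 20. The same library was the highest KO mouse for all 6 endothelial genes, with gaps of 0.697 of the range for Pecam1 and 0.635 for Cdh5, which did not pass, and it held 7962 CPM of summed skeletal muscle transcript. The part of that tissue was not tested.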

How the results depend on the processing

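The number of members called was 0 in all 9 comparisons of the main test. It became 4 with DESeq2 for KO against WT over both viruses and 1 with DESeq2 for KO against WT with AAV-GFP, and ranged from 0 to 5 when each library was left out over both viruses. It was 0 in the other comparisons under each alternative run. With the replicate number as a block, 0 members were called in each comparison, as without it, and no log2 fold change of a member changed sign; the numbers do not pair the mice. Over the 90 log2 fold changes (10 members in 9 comparisons), signs turned for 19 with the GC and length trend removed. Leaving out an AAV library concerned 80 values. Of these, 13 turned without KO AAV-GFP mouse 1 and at most 11 without any other AAV library. Leaving out an untreated library concerned 10 values, of which at most 3 turned. The cause was not tested. Vegfa for KO against WT with AAV-GFP, at -0.16, reached 0.051 when libraries were left out in turn. Of the values given in the text, the following turned. With the GC and length trend removed, Vegfb went to -0.10 in the untreated mice and to 0.068 over both viruses, and Angpt2 to -0.028 over both viruses. In the untreated libraries without Y-linked transcripts, Pecam1 went to -0.32 and Angpt2 to -0.28. Leaving out each library in turn gave, in the untreated mice, -0.20 to 0.32 for Pecam1, -0.045 to 0.35 for Cdh5, -0.21 to 0.016 for Flt1 and -0.32 to 0.82 for Angpt2. It gave -0.13 to 0.062 for Kdr and -0.20 to 0.24 for Angpt2 over both viruses, and for Kdr -0.20 to 0.19 with AAV-GFP and -0.15 to 0.069 with AAV-PRDM16. The log2 fold changes of Pecam1, Cdh5, Flt1, Tek and Vwf over both viruses kept their sign in all 17 alternatives, with ranges of 0.32 to 0.49, 0.34 to 0.52, 0.18 to 0.39, 0.24 to 0.42 and 0.50 to 0.71, the lowest each with the GC and length trend removed. Angpt2, with 35 to 170 reads in the AAV libraries and 42 to 392 in the untreated ones, is limited by depth more than the other members.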

Other observations

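Genes of the cells that wrap vessels had a median above that of all genes when KO was compared with WT in the AAV cohort. Of 12 mural cell genes, edgeR called 0 over both viruses, where it called 2.18% of all genes. At an unadjusted p under 0.05, 7 passed higher and 1 lower in KO. Of all genes, 18.3% passed in either direction and 9.54% higher in KO. DESeq2 called 1 in each direction, where it called 8.2% of all genes. The median log2 fold change was 0.30, against 0.01 over all genes. Rgs5, a pericyte marker, stood at 0.38 ± 0.11 (FDR = 0.0796), the adhesion molecule Mcam at 0.36 ± 0.16 (FDR = 0.251), Cspg4 at -0.04 ± 0.07 (FDR = 0.797) and Des, desmin, at -0.50 ± 0.14 (FDR = 0.0883). Without KO AAV-GFP mouse 1, edgeR called 1 gene of this list, Des, lower in KO, where it called 3.02% of all genes. The summed list lay at 556 to 696 CPM in the 6 WT mice and at 665 to 829 CPM in the 6 KO mice.

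Lymphatic endothelial genes were scarce, at 8.86 to 14.7 CPM summed over 8 genes in WT and 10.4 to 13.1 CPM in KO mice. EdgeR and DESeq2 called 0 of them, where they called 2.18% and 8.2% of all genes. At an unadjusted p under 0.05, 1 passed (Lyve1, 0.76 ± 0.33, FDR = 0.248), against 18.3% of all genes. Flt4, the receptor of lymphatic vessels, stood at 0.19 ± 0.15 (FDR = 0.545).

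The CPM ratio of Vegfa to Vegfb ranged over 2.61 to 3.89 in WT mice and 2.22 to 4.13 in KO mice of the AAV cohort, and over 1.61 to 4.73 in WT mice and 0.634 to 2.28 in KO mice of the untreated cohort. In the untreated libraries Vegfb rose with the GC slope (r = 0.97) and Vegfa fell with it (r = -0.84). The part of base composition in their ratio was not tested. The CPM ratio of Angpt1 to Angpt2 ranged over 14.3 to 32.6 in WT mice and 14.3 to 48.0 in KO mice of the AAV cohort, and over 4.88 to 46.4 in WT mice and 1.29 to 9.03 in KO mice of the untreated cohort. Only untreated WT 1 (30.7) and WT 2 (46.4) lay above the KO mice, while WT 3, 4 and 5 (6.15, 4.88 and 7.37) lay within the KO range. Of 14 lymphocyte and lymph node genes, 10 were tested, and their sum ran from 6.48 to 60.6 CPM in the untreated and from 8.01 to 84.6 CPM in the AAV libraries.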
